A study of Mus musculus with 8 samples.

Results

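Transcripts of the mitochondrial ribosomal proteins were examined in myeloid cells from mouse spleen. The group was defined by gene symbol, as all genes named Mrpl or Mrps followed by a digit, with pseudogene symbols left out. It held 78 of the 23084 rows of the deposited table, 49 with a large subunit symbol and 29 with a small subunit symbol. The RNA-seq libraries came from C57BL/6 mice aged 6-8 weeks, in 4 groups of 2 samples. The sorted subsets, CD11b+Ly6C+ (monocytic) and CD11b+Ly6G+ (granulocytic), were each taken from wt mice and from mice whose Lmna gene, which encodes lamin A/C, was deleted in myeloid cells (LmnaMyeKO). The deletion was made by crossing Lmna flox/flox mice with LysM-Cre mice, so Cre followed the lysozyme 2 promoter, which is active across granulocytes, monocytes and macrophages. The cell marker field of the labels read CD11b+Ly6C+ for every sample, and the subset was therefore taken from the sample titles.

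Mitochondrial ribosomes are assembled inside the organelle from rRNAs of the mitochondrial genome and from proteins encoded in the nucleus, which cytosolic ribosomes make and which are then imported. They translate the few mRNAs of the mitochondrial genome, all of which encode subunits of the respiratory chain and of ATP synthase. The large subunit carries the peptidyl transferase centre and the exit tunnel, and the small subunit binds the mRNA and decodes it. Many of the proteins have bacterial homologs, while others are found only in mitochondria.

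The value described below is the authors' mean signal per gene, a mean of counts divided by size factors. The lowest means in the table were whole-number sums of 8 fixed amounts, which shows that 8 libraries were averaged, as many as there were samples. The levels were therefore taken to pool both subsets and both genotypes, though which libraries were averaged is not stated. Values per sample were not given, the authors' own comparison of genotypes was not used, and genotypes and subsets were therefore not compared. The Lmna deletion could not be checked sample by sample. Levels of different genes were compared per kilobase (kb) of the longest principal transcript of the gene in GENCODE M21. Error from counting alone, taken at the lowest number of reads a mean allows, lay between 0.709% and 4.7% of a member's mean, and it does not include the variation between mice. Fewer cells of a type and less RNA per cell cannot be told apart in these bulk samples.

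Neutrophil markers led the pooled mean, with a median level of 85973 per kb over 10 genes. The median of 8 genes listed as monocyte markers was 924 per kb. Ly6c2 stood at 17534 and Csf1r at 4714 per kb, but Ccr2 at 437, Fcgr1 at 304 and Cx3cr1 at 157 per kb. Itgam (11628 per kb), also on that list, encodes CD11b, on which both subsets were sorted, and does not set monocytes apart here. Markers of other spleen cells stood at a median of 5459 per kb (6 red pulp macrophage genes), 1689 per kb (5 B cell genes) and 197 per kb (5 T and NK cell genes), the first 2 of them above the monocyte median. Of 5 erythroid and platelet genes, the globin genes Hbb-bs and Hba-a1 stood at 13663 and 6669 per kb and the others at 42.7 to 66.7 per kb. All 6 macrophage genes and all 5 B cell genes were above the median coding gene, and none of the defining markers was at 0. The part of these cells in the levels below was not tested.

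Every member was detected. The lowest authors' mean was 71.0 (Mrps6) and the highest was 3120 (Mrpl33). Per kb, the levels ran from 34.6 (Mrpl47) over a median of 185 to 6527 (Mrpl33), and the middle part of the group, from the lower to the upper quartile, spanned 3.13-fold. Among the 15683 coding genes with a length, the median level was 92.7 per kb. Of the 78 members, 60 were above that median (44 with no division by length, and 41 where coding genes with a mean under 10 were left out), 18 were not, and 2 were above 90% of coding genes (Mrpl33 and Mrps21). Together, transcripts of the mitochondrial ribosomal proteins made up 0.11% of the summed mean of the table.

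**Figure D1:**
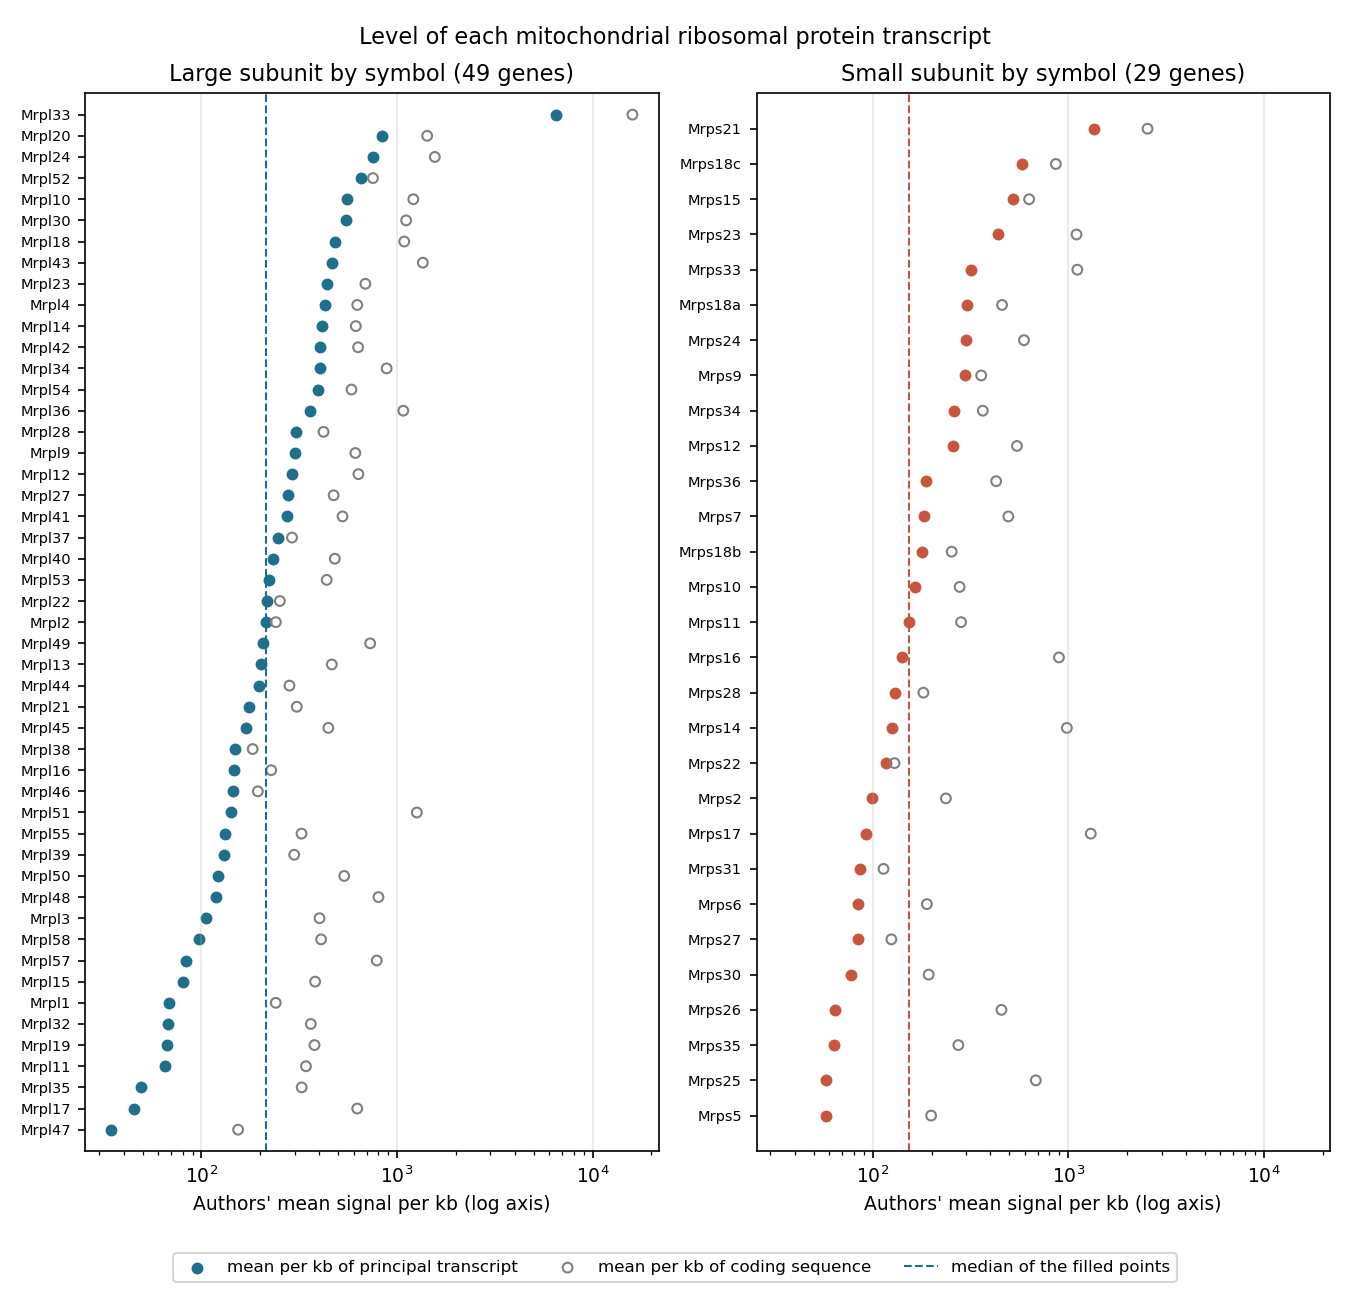
Level of each of the 78 members, with large subunit genes on the left and small subunit genes on the right. Filled points are the authors' mean signal per kb of principal transcript, open points the same mean per kb of coding sequence, dashed lines the medians of the filled points, and the horizontal axis is logarithmic. Mrpl33 stands at 6527 per kb, apart from the other members, and the open points are further to the right for genes with long noncoding sequence, such as Mrpl17 and Mrps25.

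Mrpl33, a small bacterial-type protein of the large subunit, had the highest level. Its mean of 3120 was 11.3% of the summed mean of the members, and its 6527 per kb exceeded 98.4% of coding genes. The next member, Mrps21, a bacterial-type protein of the small subunit, stood at 1361 per kb, and the step of 4.80-fold between them was the largest between neighbouring members. Below Mrps21 the levels formed a nearly continuous series. Of the 77 steps between neighbours, 61 were under 0.1 on the log2 scale, and with no spread between samples to set them against, the order of these neighbours is not a result. Mrpl33 lies on chromosome 5 (GRCm38, 31596935 to 31664384, + strand), where its span overlaps Rbks on the opposite strand (mean 103), and whether the counting used strand is not given in the sources used here. Mrps21 lies on chromosome 3 (95862634 to 95871519, - strand).

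The windows around the transcription starts of these 2 genes are shown because they lead each subunit. Each window holds 250 bases before and 50 bases from the start on, 5′ to 3′ on the gene's strand, from RefSeq on GRCm38.p6. Capitals mark matches, on either strand, to the letters GCGCA, any base and GCGC in a row (NRF1, nuclear respiratory factor 1), AAGATGGCG (YY1) and CCGGAAG (the ETS family, which includes GABP).
Mrpl33, chr5:31613701-31614000, + strand: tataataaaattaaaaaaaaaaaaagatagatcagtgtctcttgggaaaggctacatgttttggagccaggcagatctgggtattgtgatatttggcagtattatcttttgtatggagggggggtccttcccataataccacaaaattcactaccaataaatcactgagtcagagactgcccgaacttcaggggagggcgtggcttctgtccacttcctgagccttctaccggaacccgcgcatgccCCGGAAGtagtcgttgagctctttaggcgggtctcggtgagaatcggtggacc
Mrps21, chr3:95871465-95871764, - strand: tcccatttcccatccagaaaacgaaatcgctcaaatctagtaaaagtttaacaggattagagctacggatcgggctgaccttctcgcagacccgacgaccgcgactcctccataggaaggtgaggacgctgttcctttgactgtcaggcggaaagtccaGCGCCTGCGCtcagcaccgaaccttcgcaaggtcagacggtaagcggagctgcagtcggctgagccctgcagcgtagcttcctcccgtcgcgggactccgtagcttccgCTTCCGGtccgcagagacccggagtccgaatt
Mrpl33 had 1 ETS match, next to the start. Mrps21 had 1 NRF1 match and 1 ETS match. These are matches of letters, and binding was not measured.

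In the large subunit, the highest levels after Mrpl33 were those of Mrpl20 (835 per kb), Mrpl24 (756 per kb), Mrpl52 (654 per kb), Mrpl10 (558 per kb) and Mrpl30 (552 per kb). Mrpl24 is a protein near the exit tunnel, Mrpl10 holds the stalk that recruits translation factors, and Mrpl52 is specific to mitochondria. Apart from Mrpl52, these highest genes have bacterial homologs, as do the lowest. The lowest were Mrpl47 (34.6 per kb), Mrpl17 (45.3 per kb), Mrpl35 (49.3 per kb), Mrpl11 (64.8 per kb), Mrpl19 (66.3 per kb) and Mrpl32 (67.5 per kb), all with bacterial homologs. All 6 of them have long annotated transcripts, from 3013 bases (Mrpl32) to 7300 bases (Mrpl17).

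In the small subunit, Mrps21 was followed by Mrps18c (581 per kb), Mrps15 (521 per kb), Mrps23 (439 per kb), Mrps33 (320 per kb) and Mrps18a (305 per kb). Mrps23 and Mrps33 are specific to mitochondria, while Mrps15 and Mrps18c have bacterial homologs. The lowest were Mrps5 (57.5 per kb), Mrps25 (57.6 per kb), Mrps35 (63.2 per kb), Mrps26 (63.9 per kb), Mrps30 (77.2 per kb) and Mrps27 (83.9 per kb). Mrps5 and Mrps25 differed by less than their counting errors of 2.47% and 2.12%. Mrps6, the lowest by its mean, has a short transcript of 846 bases and stood at 83.9 per kb, level with Mrps27.

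The median level was 214 per kb for the 49 large subunit genes and 154 per kb for the 29 small subunit genes. The difference was 0.48 on the log2 scale (1.39-fold), against a standard deviation among all members of 1.26. The subunits overlapped through most of their range. Of the large subunit genes 30 exceeded the small subunit median, and of the small subunit genes 10 exceeded the large subunit median. With the mean not divided by length the difference was 0.099 (medians of 282 and 263), and with coding length in its place it was 0.17 (481 and 428 per kb). It was larger, at 0.61, with the median length of the coding transcripts, and at 1.08 with the merged length of all exons. Without replicates and with genes as the only points, the difference was not tested.

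How a mean is divided by length changed the order strongly. Annotated transcripts of the members had a median length of 1302 bases and a median coding length of 582 bases, and 16 large and 9 small subunit genes had transcripts over 2000 bases. Over the 78 genes (each gene a point, and no gene a replicate of another), transcript length and the mean had a Spearman correlation of 0.15, whereas length and the level per kb had one of -0.74, length being part of that level. Mrps17, with 5061 bases of transcript and 360 of coding sequence, ranked 61 per kb of transcript and 6 per kb of coding sequence. Mrpl51 moved from rank 49 to rank 7, and Mrpl17 from rank 77 to rank 27. Mrpl10, Mrpl20, Mrpl24, Mrpl33 and Mrps21 were among the 10 highest under each of 6 ways to treat length, and Mrpl47 was among the 10 lowest under each. Mrpl33 ranked first under 5 of the 6 and ranked 4 with the merged length of all exons.

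**Figure D2:**
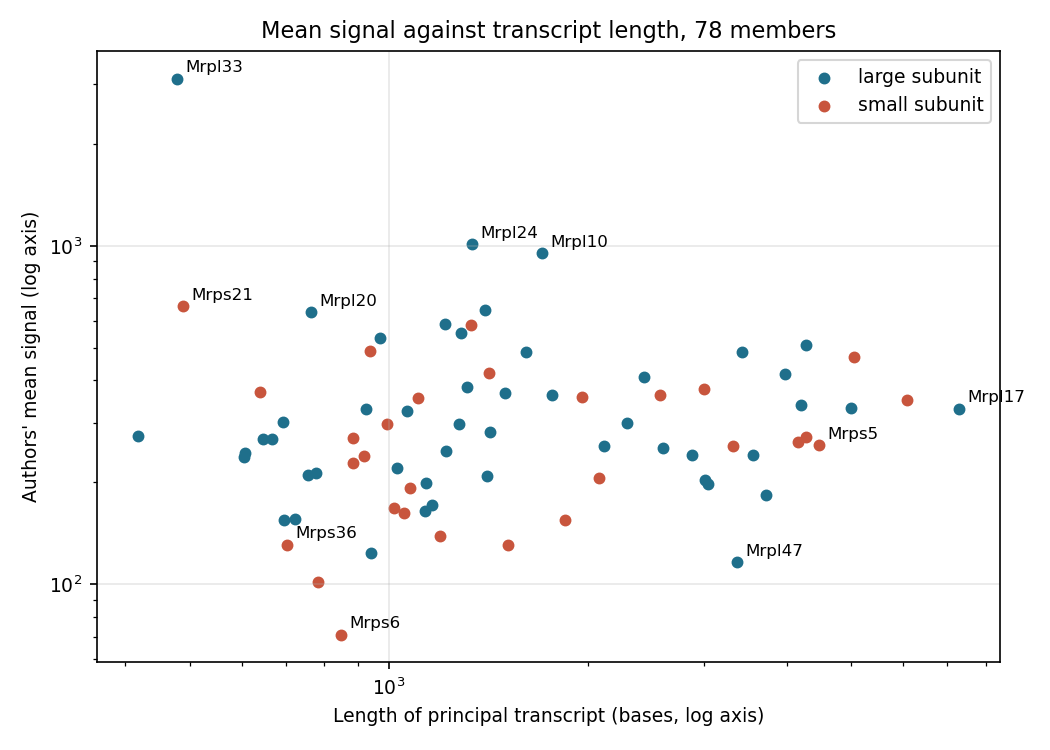
Authors' mean signal of each member against the length of its principal transcript in bases, both on logarithmic axes, with large subunit genes in blue and small subunit genes in red. The means do not follow length (Spearman correlation 0.15), with Mrpl33 at 3120 far above the rest and Mrps6 at 71.0 the lowest.

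Members were then grouped by their place in the ribosome. In the stalk and its base, which bind the translation factors, Mrpl10 stood at 558 per kb, Mrpl54 at 392 per kb, Mrpl12 at 291 per kb, Mrpl53 at 223 per kb and Mrpl11 at 64.8 per kb. Mrpl12, which is present in several copies per ribosome, was thus not the highest of the stalk genes. Around the exit tunnel, the median of 6 genes was 207 per kb, from Mrpl39 (131 per kb) to Mrpl24 (756 per kb), with Mrpl23 at 436 per kb and Mrpl22 at 215 per kb. Mrpl45, which attaches the ribosome to the inner membrane, stood at 168 per kb and Mrpl44 at 198 per kb. In the central protuberance, where the mammalian ribosome holds a tRNA in place of the bacterial 5S rRNA, the median of 7 genes was 145 per kb. Mrpl18, whose bacterial relative binds that rRNA, was the highest of them at 482 per kb, and Mrpl58, a relative of release factors, was the lowest at 97.4 per kb. These places depended on the length used. Per kb of coding sequence, Mrpl58 (409) stood above Mrpl38 (183). With the median length of the coding transcripts, Mrpl48 (588 per kb) stood above Mrpl18 (482 per kb). With that length Mrpl11 of the stalk rose to 297 per kb, beside Mrpl12 at 291 per kb.

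The 3 paralogs of bacterial S18 differed. Mrps18c, in the small subunit, stood at 581 per kb, Mrps18a at 305 per kb and Mrps18b at 179 per kb. Mrps18a and Mrps30, despite their symbols, sit in the large subunit, and moving both to it left its median at 214 per kb. Mrps36, now counted as a subunit of the oxoglutarate dehydrogenase complex and not of the ribosome, stood at 187 per kb, close to the median of all members. Genes with bacterial homologs had a median of 247 per kb in the large subunit (30 genes) and 159 per kb in the small subunit (16 genes). Genes listed as specific to mitochondria had 198 per kb (21 genes, with Mrps18a and Mrps30) and 101 per kb (10 genes, with Mrps18b). Mrps18a and Mrps18b were counted there although they are paralogs of bacterial S18. All 5 ribosomal proteins that carry other symbols were detected above the median coding gene: Aurkaip1 at 1028 per kb, Chchd1 at 387 per kb, Ptcd3 at 181 per kb, Dap3 at 137 per kb and Gadd45gip1 at 97.7 per kb.

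The group was set beside genes of the same pathway. The mitochondrial translation factors had a median of 81.2 per kb over 10 genes, from Mtrf1, a release factor relative (28.1 per kb), Mrrf (40.6 per kb) and Mtrf1l (41.1 per kb) up to Tsfm (103 per kb), Gfm2 (199 per kb) and the elongation factor Tufm (392 per kb). Of these 10 genes 4 were above the median coding gene. Ribosome assembly and rRNA modification genes had a median of 112 per kb over the 19 of 20 listed genes with a row, 10 of them above the median coding gene. Fastkd2 (35.8 per kb), Tfb1m (37.1 per kb) and Gtpbp10 (42.1 per kb) were the lowest, while Ngrn (248 per kb), Mterf3 (259 per kb) and the small subunit assembly factor Rbfa (1503 per kb) were the highest. The 17 mitochondrial aminoacyl-tRNA synthetases had a median of 67.6 per kb, from Nars2 (18.9 per kb), Wars2 (29.3 per kb) and Pars2 (29.9 per kb) to Cars2 (181 per kb), Tars2 (193 per kb) and Lars2 (266 per kb). Among 6 genes of mitochondrial mRNA handling and membrane insertion, with a median of 112 per kb, Slirp was the lowest (77.0 per kb), below Polrmt (81.8 per kb) and Taco1 (102 per kb). Tfam (121 per kb), Lrpprc (132 per kb) and the insertase Oxa1l (314 per kb) were the higher ones. The median of the members was 1.09 higher on the log2 scale than that of the translation factors and assembly genes together, and 0.19 higher with the mean not divided by length.

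**Figure D3:**
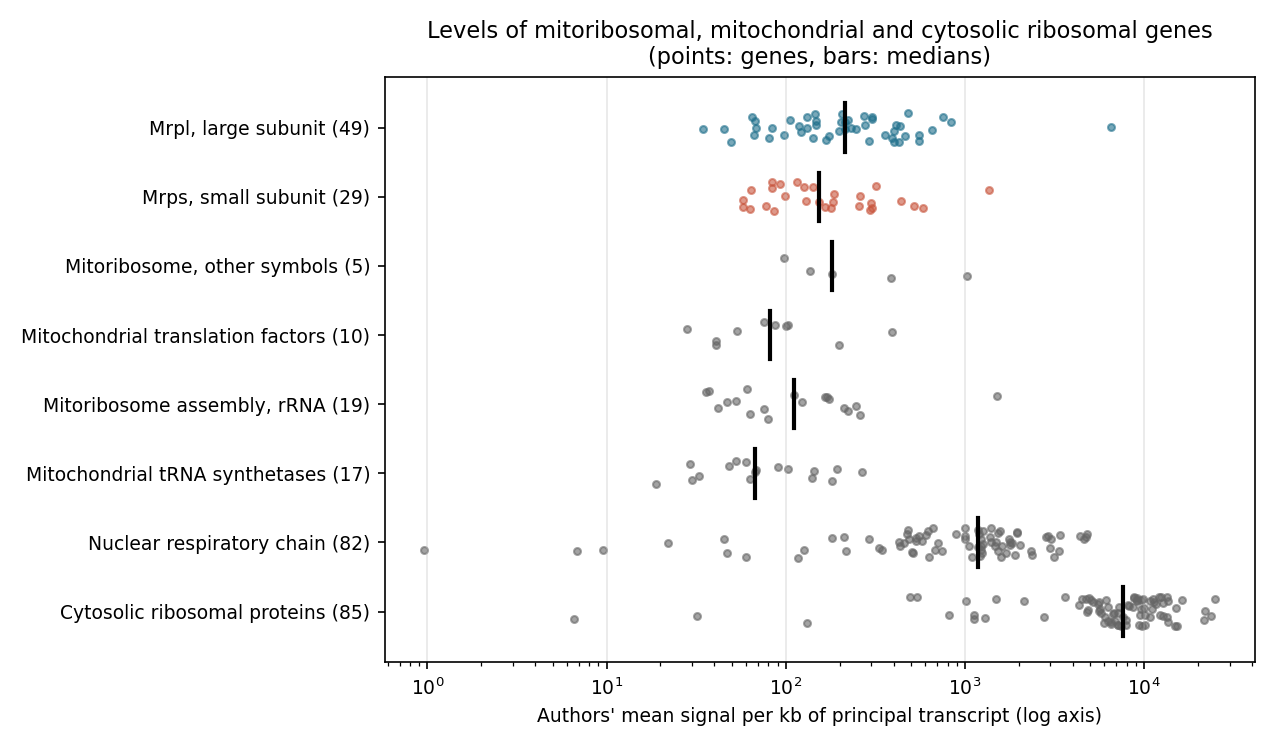
Authors' mean signal per kb of principal transcript, on a logarithmic axis, for the genes of 8 lists, with 1 point per gene and a bar at each median. Both subunits (medians 214 and 154 per kb) lie between the translation factors (81.2 per kb) and the respiratory chain (1181 per kb), and the cytosolic ribosomal proteins lie highest (7677 per kb).

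The nuclear genes of the respiratory chain and ATP synthase, whose products join those made by the mitochondrial ribosome, had a median of 1181 per kb over 82 genes, 6.40-fold above that of the members. The difference of -2.68 on the log2 scale was -1.93 per kb of coding sequence and -1.78 with no division by length. Of the 78 members 2, Mrpl33 and Mrps21, exceeded the median of these genes per kb of transcript or of coding sequence, whereas with no division by length the 3 above it were Mrpl33, Mrpl24 and Mrpl10. These genes and their complexes were assigned by symbol alone, a rule that does not check that each product is a subunit. By complex the medians were 604 per kb for complex I, 1232 per kb for complex II, 1227 per kb for complex III, 1690 per kb for complex IV and 1789 per kb for complex V. The highest genes were Atp5l (4777 per kb), Atp5b (4772 per kb) and Cox8a (4611 per kb), all below Mrpl33 per kb, though by the mean not divided by length 6 of the 82 genes, Atp5b (9143) among them, exceeded Mrpl33 (3120). The lowest were Ndufa4l2 (0.963 per kb), Cox4i2 (6.87 per kb) and Cox7a1 (9.61 per kb), which encode isoforms of other tissues or conditions.

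Cytosolic ribosomal protein genes had a median of 7677 per kb over 85 genes, 41.6-fold above the members (-5.38 on the log2 scale, and -4.67 with no division by length), and none of the members reached that median. Their highest levels were those of Rps27 (24960 per kb), Rps9 (23726 per kb) and Rplp1 (21918 per kb). The lowest were Rpl39l (6.60 per kb), Rpl3l (32.1 per kb) and Rps19bp1 (131 per kb), the last of which is a binding partner of a ribosomal protein that the symbol rule took in. Of the 85 genes, 32 were below Mrpl33. Cytosolic ribosomal protein genes have many pseudogene copies, and their share of these reads was not tested.

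The mitochondrial genome's own transcripts, chosen for description after their values were seen, were far more abundant. Its 13 mRNAs ran from 7598 per kb (mt-Nd4l) over a median of 46683 per kb to 321222 per kb (mt-Co1). The rRNAs stood at 13682 per kb (mt-Rnr1, small subunit) and 16039 per kb (mt-Rnr2, large subunit). Per kb of transcript each of the 13 mRNAs was above every member, but by the mean itself, or with the members taken per kb of coding sequence, 2 of them (mt-Nd3 and mt-Nd4l) were below Mrpl33. How far the library preparation selected or depleted rRNA is not given in the sources used here, and the rRNA levels cannot be set against the proteins.

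The genes of the group are spread over 17 chromosomes, with 11 members on chromosome 11, 8 on chromosome 17 and 7 on chromosome 6. Within 1000 bases of the start of 28 members (35.9%), another coding gene starts on the opposite strand, against 1882 of the 15683 coding genes (12%), a share given as a description. These were 19 large and 9 small subunit genes in 27 pairs. In 21 pairs the genes point apart without overlap at their starts, and in 6 pairs the starts overlap. Levels within pairs were mostly unlike. Per kb, the member was the higher gene in 16 pairs and the partner in 11, and in 6 pairs the levels were within 2-fold of each other. Some pairs changed side with the mean not divided by length. Mrpl14 (268), Mrpl40 (297) and Mrpl54 (237) then stood below Tmem63b (526), Hira (861) and Apba3 (450). Mrpl46 (165) then stood above Mrps11 (162).

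Some partners serve the same organelle, and they are named as examples. Their share was not counted over all pairs or set against all coding genes. Mrpl46 and Mrps11, of the large and the small subunit, start 30 bases apart on chromosome 7 and stood at 145 and 154 per kb. Mrpl43 (462 per kb) starts 116 bases from Twnk, the helicase of mitochondrial DNA (54.0 per kb). Mrps12 (258 per kb) starts 232 bases from Sars2, the mitochondrial seryl-tRNA synthetase (67.6 per kb). Mrpl47 (34.6 per kb) overlaps at its start with Ndufb5, a complex I subunit (531 per kb). Other pairs joined members to genes of unrelated duties. Mrpl49 (206 per kb) starts 182 bases from Fau, which encodes a cytosolic ribosomal protein (16752 per kb), Mrpl18 (482 per kb) starts 37 bases from the chaperonin gene Tcp1 (761 per kb), and Mrpl32 (67.5 per kb) starts 75 bases from the proteasome gene Psma2 (674 per kb). The widest differences with the member on top were those of Mrps30 (77.2 per kb), whose start overlaps that of B430218F22Rik (0.247 per kb), and Mrpl10 (558 per kb), which starts 153 bases from Lrrc46 (12.5 per kb). Mrps34 (260 per kb) and Eme2 (276 per kb), 29 bases apart, and Mrpl40 (232 per kb) and the histone chaperone gene Hira (204 per kb), 204 bases apart, stood near each other per kb. By the mean not divided by length, these pairs were further apart, at 239 (Mrps34) and 419 (Eme2), and at 297 (Mrpl40) and 861 (Hira).

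**Figure D4:**
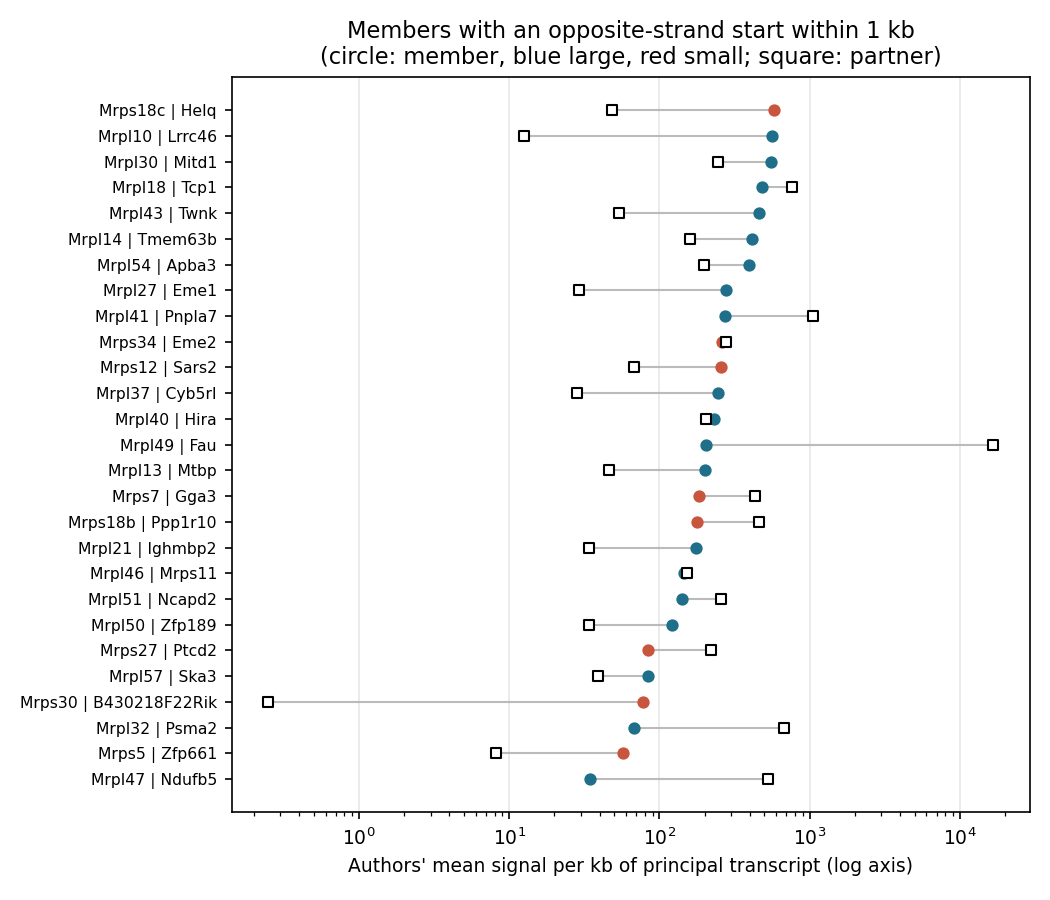
Authors' mean signal per kb of principal transcript, on a logarithmic axis, for the 27 pairs of a member (circle, blue for large and red for small subunit) and the coding gene that starts within 1000 bases on the opposite strand (square). The member is the higher gene in 16 pairs, and Mrpl46 with Mrps11 lie nearly on each other at 145 and 154 per kb.

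The region that Mrpl46 and Mrps11 share is shown because it holds both starts, and that of Mrpl45 because it held the most NRF1 matches, with that of Mrps18a for its matches to the YY1 and ETS letters.
Mrps11, chr7:78782881-78783180, + strand: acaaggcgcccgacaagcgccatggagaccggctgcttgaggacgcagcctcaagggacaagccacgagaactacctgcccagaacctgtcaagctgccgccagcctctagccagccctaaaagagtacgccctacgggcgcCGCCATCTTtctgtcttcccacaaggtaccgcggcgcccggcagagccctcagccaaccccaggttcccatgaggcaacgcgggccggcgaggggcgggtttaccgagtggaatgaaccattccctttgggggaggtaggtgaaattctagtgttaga
Mrpl45, chr11:97315466-97315765, + strand: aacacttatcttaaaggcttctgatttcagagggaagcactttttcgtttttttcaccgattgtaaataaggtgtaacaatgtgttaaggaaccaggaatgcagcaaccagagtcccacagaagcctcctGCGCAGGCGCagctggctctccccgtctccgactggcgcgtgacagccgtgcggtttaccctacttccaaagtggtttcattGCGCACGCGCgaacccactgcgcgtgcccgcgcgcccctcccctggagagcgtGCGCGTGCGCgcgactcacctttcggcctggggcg
Mrps18a, chr17:46110754-46111053, + strand: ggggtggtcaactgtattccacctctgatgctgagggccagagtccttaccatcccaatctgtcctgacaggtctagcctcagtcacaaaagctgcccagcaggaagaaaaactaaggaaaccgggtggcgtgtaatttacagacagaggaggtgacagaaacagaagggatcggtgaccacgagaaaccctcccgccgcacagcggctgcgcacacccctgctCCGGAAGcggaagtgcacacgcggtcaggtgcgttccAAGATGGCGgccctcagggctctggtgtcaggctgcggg
In the shared region, with annotated starts at position 78783089 (Mrpl46, - strand) and position 78783119 (Mrps11, + strand) of chromosome 7, the YY1 letters lie from 78783023 to 78783031 on the strand of Mrpl46, and their ATG is the annotated start codon of Mrpl46 (78783026 to 78783028). Mrpl45 had 3 NRF1 matches, and Mrps18a had 1 ETS match and 1 YY1 match, whose ATG is again its own start codon.

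Of the members, 69 had a RefSeq window, 75 windows in all. Matches to the NRF1 letters were in 17.3% of the windows, against 8.35% of the 15082 windows of coding genes in the table and 4.60% of all 32851 windows. Those to ETS were in 34.7%, against 14.8% and 8.86%, and those to YY1 in 10.7%, against 2.46% and 1.40%. SP1 letters (GGGCGG, 52.0% against 57.1% and 35.7%), the CCAAT box (CCAAT, 40.0% against 37.1% and 37.4%) and the TATA box (TATAAA, 6.67% against 8.11% and 13.6%) were closer to the coding genes. Both strands were searched, and no 2 of these motifs share their letters in full. Of the 8 YY1 matches in members, 5 fell on an annotated start codon, while 41.6% of the 385 matches in windows of coding genes did.

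NRF1 letters were in 10 of 48 large subunit windows (20.8%) and 3 of 27 small subunit windows (11.1%), and ETS letters in 15 (31.2%) and 11 (40.7%). Windows of the nuclear respiratory chain genes held NRF1 letters in 26.1% and ETS letters in 23.2%, and those of the cytosolic ribosomal proteins in 7.79% and 35.1%. YY1 letters were in 10.1% of the respiratory chain windows and 7.79% of the cytosolic ribosomal protein windows, against 10.7% of the member windows. The median level was 198 per kb for 13 members with NRF1 letters and 185 per kb for 56 without, and 219 per kb for 26 members with ETS letters and 183 per kb for 43 without. The direction turned within the large subunit, with 183 per kb against 223 per kb for NRF1 (10 and 33 members) and 215 per kb against 223 per kb for ETS (15 and 28 members). In the small subunit the medians were 296 against 154 per kb for NRF1 (3 and 23 members) and 258 against 126 per kb for ETS (11 and 15 members). These directions depended on length. By the mean not divided by length, the medians for NRF1 were 331 with and 264 without over all members. They were 315 and 269 in the large subunit, and 420 and 258 in the small subunit. For ETS they were 273 and 282 over all members, 273 and 289 in the large subunit, and 273 and 258 in the small subunit. A relation between letters and level was not tested.

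**Figure D5:**
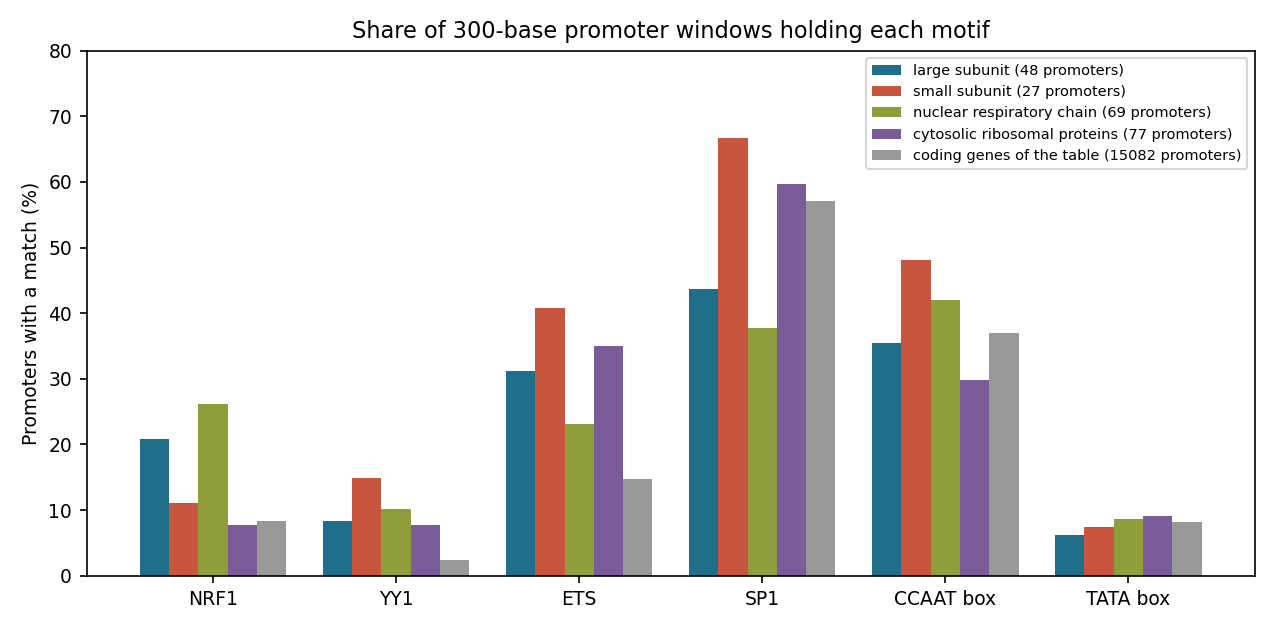
Percentage of RefSeq promoter windows with at least 1 match to each motif on either strand, for both subunits, 2 other gene lists and all coding genes of the table, with bars from 0. NRF1, YY1 and ETS letters are in a larger share of the member windows (17.3%, 10.7% and 34.7% over both subunits) than of the windows of coding genes (8.35%, 2.46% and 14.8%). The shares are 26.1%, 10.1% and 23.2% for the respiratory chain and 7.79%, 7.79% and 35.1% for the cytosolic ribosomal proteins.

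Sequence copies of the members bear on how reads are assigned. An annotated pseudogene with at least 90% identity over at least 200 bases was found for 25 members, 46 pseudogenes in all, of which 18 had a row. These members were Mrpl12, Mrpl18, Mrpl21, Mrpl22, Mrpl23, Mrpl27, Mrpl30, Mrpl32, Mrpl41, Mrpl42, Mrpl45, Mrpl47, Mrpl48, Mrpl51, Mrps5, Mrps10, Mrps14, Mrps16, Mrps18b, Mrps18c, Mrps21, Mrps25, Mrps26, Mrps33 and Mrps36. Mrps36 had the most copies, with 8. No share of the pseudogene's length was required. Gm18283, Gm29761 and Gm9894 aligned to Mrps26 over only 210 to 214 of their 1356 to 2904 bases, and are partial matches. The summed mean of a member's copies was at most 3.13% of the member's own mean, reached by Mrpl23. Reads that fit a gene and its copy equally well could have been shared between them, and the effect on the levels of these 25 members was not tested. Gene spans of 26 members also overlap another coding gene, as in Mrps34 with Mapk8ip3 (mean 2426, opposite strand) and Mrpl48 with Rab6a (mean 5827, opposite strand).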

How the data were processed

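Bulk RNA was sequenced from 2 splenic myeloid subsets, sorted on Ly6C or Ly6G, in wt and LmnaMyeKO mice (8 samples). The authors trimmed reads with Cutadapt (version 1.14), aligned them to mm10 with STAR (version 2.5.2b), quantified genes with RSEM (version 1.3.0) and GENCODE M12, and ran DESeq2 (version 1.20.0). The deposited table gives a mean signal per gene, made by the authors from counts divided by size factors. Its other columns hold the authors' comparison of genotypes (log2 fold change, its standard error, test statistic, p-value, adjusted p-value and fold change). They were not used, and since no values per sample were at hand, no genotype was compared and the planned count test was not run. The depth of each sample is unknown.

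All 1533 means below 0.45 were whole-number sums of 8 amounts between 0.06533 and 0.157 (tolerance 4e-08), a search tested on simulated data first. The size factors so inferred ran from 0.796 to 1.91, with the second highest at 1.05, and which library each belongs to was not determined. The errors given for members cover counting only, and no intervals were computed.

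Members and lists were chosen with earlier results of these data known. For 28 symbols on several rows, the highest was used, and 23004 identifiers were found in GENCODE M21 (GRCm38). Levels are means per kb of the longest principal transcript. Genes named are the 6 highest and 6 lowest of each subunit, the role groups, Mrps30 and Mrps36, members with a divergent start or pseudogene copy, and the 3 highest and 3 lowest of each list. Pseudogene transcripts were aligned with blastn 2.17.0 (at least 90% identity over 200 bases). RefSeq promoters were matched by symbol. Alternatives changed the length, a minimum mean of 10, duplicate rows and membership. The differences between subunits and from the cytosolic and respiratory chain genes were also recomputed on simulated means. These were drawn and divided with the same lengths, so they check the calculation and cannot test the choice of length. Python 3.11.15 with pandas 2.3.3 was used.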

Additional observations from a re-analysis of the deposited data

Results flagged for a closer look

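The 3 pseudogene symbols left out of the group have rows of their own in the table. For 2 of them the authors' mean was above 0.471, the largest mean that 3 reads in all give, with 9.43 for Mrpl23-ps1 and 3.51 for Mrpl48-ps. Mrps36-ps2, at 0.306, was below it. These means were 3.13% and 0.691% of those of Mrpl23 and Mrpl48.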

How the results depend on the processing

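Each of the 8 values (medians of both subunits, their difference, the spread, 3 differences between members and other lists, and the number above the median coding gene) was recomputed under 10 alternatives planned and 2 chosen after seeing the data (transcript length less 200 bases, and the shortest principal transcript). None of the differences between medians changed sign, while the other values have no sign to change. No member stood on several rows, and summing rows left every value unchanged. No member had a mean under 10, and that minimum left the subunit medians and the spread unchanged. Of the 96 recomputed values, some of them unable to move, 86 stayed within 1.5 times the value reported. Log2 differences were judged by the fold they stand for. On that scale the difference between subunits (0.48) counted as within it at 0.17 per kb of coding sequence and at 0.099 with no length. Per kb of coding sequence, the medians were 481 (large) and 428 (small), and the difference between members and the respiratory chain was -1.93 on the log2 scale, against -2.68. With merged exon length the small subunit median was 74.6 per kb and the difference between subunits 1.08. With no division by length, the small subunit median was 263, the spread 0.82 (SD of log2), and the differences from cytosolic ribosomal protein genes, respiratory chain genes and translation and assembly genes were -4.67 (against -5.38), -1.78 and 0.19. Median transcript length was 1302 bases for the members, 878 for cytosolic ribosomal protein genes and 863 for respiratory chain genes. It was 2262 bases for translation and assembly genes. Whether the values with or without division by length are nearer to the number of transcripts was not tested. The number of members above the median coding gene was 44 of 78 with no length, 41 of 78 where genes with a mean under 10 were left out, 71 of 78 per kb of coding sequence, and 40 of the 53 left without members with a pseudogene copy. No paired analysis was possible because only a mean over samples is given, and leaving out single replicates was not possible for the same reason. The depth of single samples is unknown, and differences between neighbouring levels below the counting error were not separable.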
